A study of Homo sapiens with 6 samples.

Results

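The genes described here build cholesterol, sense it and move it, and they were read in HCT116, an established line of human colorectal carcinoma cells, after knockdown of the Wnt pathway transcription factor TCF7L1. The list held 33 genes, chosen by gene symbol, with older names matched to current ones. Of these, 31 had at least 1 probe named for them on the Illumina expression array, 47 probes in all, and 29 had a probe bright enough to test, out of 10470 genes tested in the series. The tested cells carried a short hairpin RNA against TCF7L1 (shTCF7L1, 3 arrays) and their controls a control hairpin (shCtrl, 3 arrays). The series calls the 3 RNA samples of each condition biological replicates. The sources used here give neither the hairpin sequences nor the number of clones nor the time after delivery. Each array reports the brightness of beads that carry a probe of fixed sequence, so a probe's brightness can be compared between arrays but not with that of another probe. Because RNA came from whole cultures, a lower value can reflect less RNA per cell or fewer cells that express the gene, and these cannot be told apart.

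Cells make cholesterol from acetyl-CoA through the mevalonate pathway, which also feeds the side chains of ubiquinone, dolichol and prenylated proteins. Squalene, made from farnesyl diphosphate, is closed into a sterol ring and then trimmed and rearranged to cholesterol. When the endoplasmic reticulum holds little cholesterol, the escort protein SCAP carries the membrane-bound SREBP factors to the Golgi, where proteases free their DNA-binding part, and INSIG proteins hold this complex back when sterols are plentiful. Oxysterols formed from surplus cholesterol activate the LXR receptors, which turn on cholesterol export and the breakdown of lipoprotein receptors. Fast-dividing epithelial tumour cells need sterols for new membranes.

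The arrays were alike in depth, with a mean bead signal of 162.3 to 176.7 and between 34.0% and 36.8% of probes above background (detection p below 0.01). Correlations over the 10470 tested genes ran from 0.971 to 0.975 for arrays of the same group and from 0.942 to 0.948 for arrays of different groups. On the second principal component (13.6% of the variance) shTCF7L1 replicate 3 lay at -24.9, away from the other knockdown arrays at 13.9 and 12.5, and the results that rest on this array are also given without it. The 3 arrays of each group lay side by side on a shared chip, so chip position and group cannot be told apart. Of 10 colorectal epithelial markers 7 were above background on all 6 arrays, EPCAM, CDH1, KRT8, KRT18, KRT19, CDX2 and CLDN7, while VIL1, CDX1 and LGALS4 were on none. The summed signal of these markers was 7675 to 10494 in the shTCF7L1 arrays and 9521 to 11072 in the shCtrl arrays. KRT8 (log2 fold change -0.82) and CLDN7 (-0.88) fell, while CDH1 (-0.53), KRT18 (-0.37), KRT19 (-0.02), CDX2 (0.085) and EPCAM (0.42) did not pass. Of 6 fibroblast markers COL1A1 alone was above background on all arrays, and it rose (log2 fold change 1.14, adjusted p = 0.0116). The fibroblast list summed to 230 to 349 in the shTCF7L1 arrays and 192 to 222 in the shCtrl arrays, with COL1A2, LUM and PDGFRB on no array above background. Of 5 leukocyte markers PTPRC and CD3E were above background on no array. CD79A and CD14 were above it on 2 shTCF7L1 arrays and 1 shCtrl array each and did not pass. LYZ was above it on 2 shTCF7L1 arrays and 0 shCtrl arrays, and its brighter probe was higher on all 3 knockdown arrays (log2 fold change 0.55, limma adjusted p = 0.0772). This list summed to 187 to 191 in the shTCF7L1 arrays and 153 to 182 in the shCtrl arrays. Of 3 endothelial markers PECAM1 and CDH5 were above background on no array and VWF on 0 shTCF7L1 arrays and 1 shCtrl array, with sums of 87.4 to 91.4 in the shTCF7L1 arrays and 84.9 to 101.6 in the shCtrl arrays. The part of these shifts in the sterol pathway values was not tested.

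TCF7L1 itself was read by a single dim probe (ILMN_1733841). Its bead signal was 29.3, 32.4 and 25.4 in the shTCF7L1 arrays, against 45.1, 35.8 and 40.6 in the shCtrl arrays. All 3 knockdown values lay below all 3 control values, and the probe was above background on 0 knockdown arrays and 2 control arrays. The normalized log2 difference was -0.53 (standard error, SE, from limma 0.20), which did not pass the threshold used throughout, a Benjamini-Hochberg adjusted p below 0.05 over all genes tested (limma adjusted p = 0.0800).

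Among the sterol pathway genes, 6 of the 29 tested were lower in shTCF7L1 cells and 1 was higher. The 6 were the late synthesis enzymes SQLE, MSMO1, NSDHL and EBP, the SREBP brake INSIG1 and the receptor gene NR1H3. MYLIP, whose product removes lipoprotein receptors, was the member that rose. Over all genes tested 7.11% were lower and 7.85% higher. The 20.7% of tested members that fell stood above the background share and the 3.45% that rose stood below it. The members were chosen with earlier results of these data known, so this comparison is a description and was not tested. The members' median log2 fold change was -0.23, against 0.02 over all genes tested, and 21 of 29 values were negative. In 12 members (41.4%) all 3 knockdown values lay below all 3 control values, which held for 15.8% of all genes, and in 1 member (3.45%) they lay above, against 18.1% of all genes. Without shTCF7L1 replicate 3 only SQLE, EBP and INSIG1 stayed lower and MYLIP higher, so 3 members were lower in place of 6. The lower genes among all tested then numbered 566 in place of 744. With any other array left out, 4 to 6 members were lower.

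**Figure D1:**
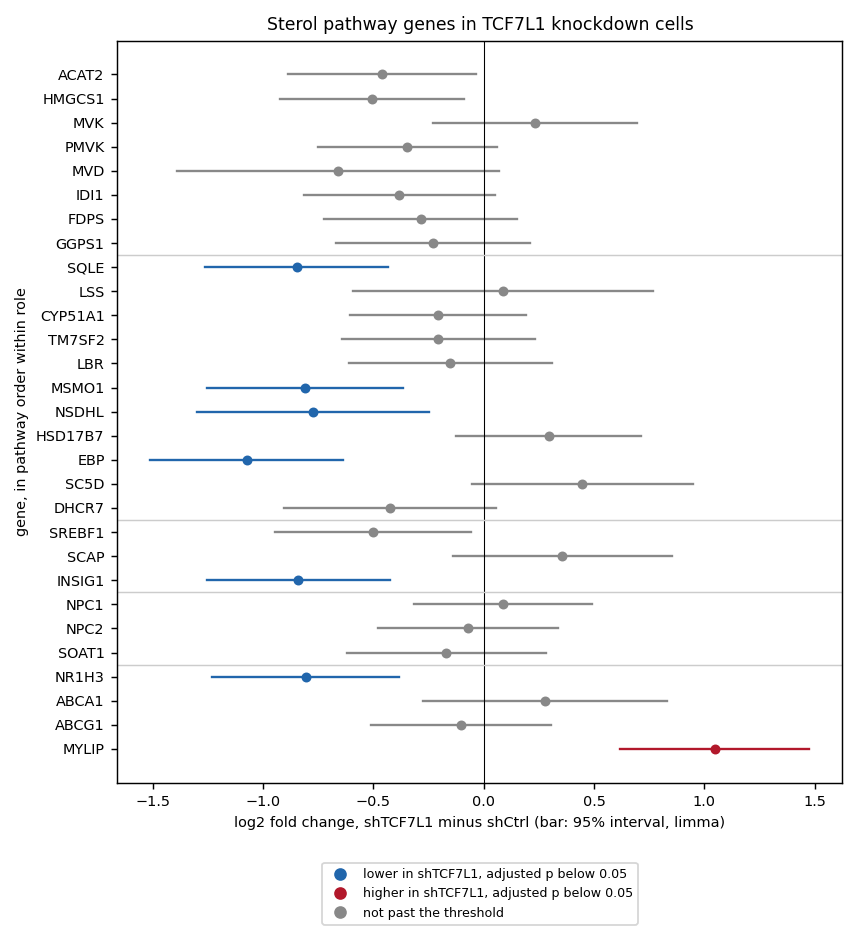
Log2 fold change of each tested sterol pathway gene (x axis, shTCF7L1 minus shCtrl) with its 95% interval from limma, in pathway order from top to bottom (y axis), with grey lines between roles. The 6 genes that fell (blue) lie between -1.07 and -0.77, MYLIP (red) at 1.05, and the genes in grey did not pass the threshold.

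Every tested member was above background on at least 1 array of each group. SOAT1 was the least detected, on 1 of 3 shTCF7L1 arrays and 3 of 3 shCtrl arrays, and MVK was detected on 3 and 2. The other 4 listed genes gave no test. The annotation names no probe for FDFT1, the squalene synthase gene, or for NR1H2, which encodes LXR beta. The SREBF2 probe was above background on 1 array of each group, and the STARD4 probe on 0 arrays.

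In the early part of the pathway, up to the prenyl diphosphates, 0 of 8 genes passed in limma. An unadjusted p below 0.05 was found for 2 of the 8, against 3125 of all 10470 genes, which is no larger a share. Of the 8 values 7 were negative, with a median log2 fold change of -0.36, against 48% negative values and a median of 0.02 over all genes. HMGCS1, which makes the HMG-CoA that the pathway reduces to mevalonate, had normalized log2 levels of 8.49, 8.28 and 8.50 in shTCF7L1 cells, against 8.82, 8.84 and 9.13 in shCtrl cells. The groups did not overlap, yet the difference of -0.51 (SE 0.20) missed the threshold (adjusted p = 0.0931). It passed with a background offset of 50 in place of 16 (log2 fold change -0.47, adjusted p = 0.0487, and 0.0487 to 0.253 over the alternatives).

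ACAT2, the cytosolic thiolase at the start of the pathway, stood at 8.11, 8.15 and 8.43 in shTCF7L1 arrays, against 8.48, 8.81 and 8.78 in shCtrl arrays. Again the knockdown values were the 3 lowest, and the difference of -0.46 (SE 0.20) did not pass (adjusted p = 0.134). In PMVK and IDI1 all knockdown values also lay below all control values, and neither gene passed. PMVK, the kinase that acts after mevalonate kinase, gave -0.35 (SE 0.19). IDI1, the isomerase that makes the reactive isoprene unit, gave -0.38 (SE 0.20). FDPS, which joins these units to farnesyl diphosphate, gave -0.29 (SE 0.21) and the branch-point gene GGPS1 -0.23 (SE 0.21), both with overlapping groups. FDPS has pseudogene copies in the genome, and which of them its probe could read was not tested. Mevalonate kinase MVK was the exception in sign, at 0.23 (SE 0.22).

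MVD, the decarboxylase that makes isopentenyl diphosphate, was the most variable of the 8 genes. Its log2 levels were 6.30, 6.67 and 4.92 in shTCF7L1 arrays, against 6.92, 6.15 and 6.81 in shCtrl arrays. The difference of -0.66 (SE 0.34, adjusted p = 0.212) rested mostly on the low value of replicate 3, and without that knockdown array it was -0.14.

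The enzymes from squalene onward held 4 of the 6 lower calls. Of 11 tested, SQLE, MSMO1, NSDHL and EBP fell and 7 missed the threshold, against 7.11% lower over all genes. The median log2 fold change was -0.21 and 8 values were negative, against a median of 0.02 and 48% negative values over all genes. The early part of the pathway, with 0 calls, had the lower median, at -0.36. SQLE, squalene epoxidase, an oxygen-using and rate-limiting enzyme, read 8.78, 8.70 and 8.76 in shTCF7L1 arrays, against 9.75, 9.37 and 9.66 in shCtrl arrays. The knockdown arrays were tightly grouped and all lay below the controls. The difference was -0.85 (SE 0.20, 95% interval -1.26 to -0.43, adjusted p = 0.00900), with control levels 1.80-fold higher. The other SQLE probe, read on all 6 arrays, gave -1.08 (SE 0.19), and no array left out ended the call.

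EBP, the sterol isomerase that shifts a double bond in the ring, showed the largest decrease of the 29 tested members when each gene is read by its brightest probe; the other SQLE probe, at -1.08, was as low. Its levels were 7.38, 7.44 and 7.27 in shTCF7L1 arrays, against 8.30, 8.24 and 8.77 in shCtrl arrays. The highest knockdown value was well under the lowest control value. The log2 fold change was -1.07 (SE 0.21, 95% interval -1.51 to -0.64, adjusted p = 0.00309), a 2.11-fold higher level in shCtrl cells. It passed in every alternative run, between -1.17 and -0.91.

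Removal of the methyl groups at carbon C4 of the sterol ring needs 3 enzymes, and their genes did not behave alike. MSMO1, the methyl oxidase, read 8.63, 8.72 and 8.24 in shTCF7L1 arrays, against 9.43, 9.10 and 9.50 in shCtrl arrays. All knockdown values lay lower, and the log2 fold change was -0.81 (SE 0.21, adjusted p = 0.0168). Of its other probes, ILMN_1689842 gave -0.55 (SE 0.22), with groups apart, and ILMN_2402499 gave 0.12 (SE 0.22), with groups overlapping. The call ended with the mean of the 3 probes (-0.41, adjusted p = 0.138), and without shTCF7L1 replicate 3, shCtrl replicate 1 or shCtrl replicate 3 (adjusted p = 0.0574 to 0.0673), within a range of 0.0120 to 0.138 over the alternatives.

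NSDHL, the sterol dehydrogenase of the same step, read 7.98, 8.28 and 7.21 in shTCF7L1 arrays, against 8.67, 8.68 and 8.43 in shCtrl arrays. Replicate 3 was far below the other knockdown arrays, which were nearer to the controls. The log2 fold change of -0.77 (SE 0.25, adjusted p = 0.0465) was the least secure of the 7 calls: it was -0.47 without shTCF7L1 replicate 3 (adjusted p = 0.189) and did not pass in 10 of 17 alternatives, among them any single array left out except shTCF7L1 replicate 2. HSD17B7, the reductase that completes the step, had a positive value of 0.30 (SE 0.20, adjusted p = 0.337), with overlapping groups. The annotated pseudogene copy HSD17B7P2, looked up after the values were seen, has a probe of its own. It gave -0.47 (SE 0.20), and how far either probe reads the other transcript was not tested.

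**Figure D2:**
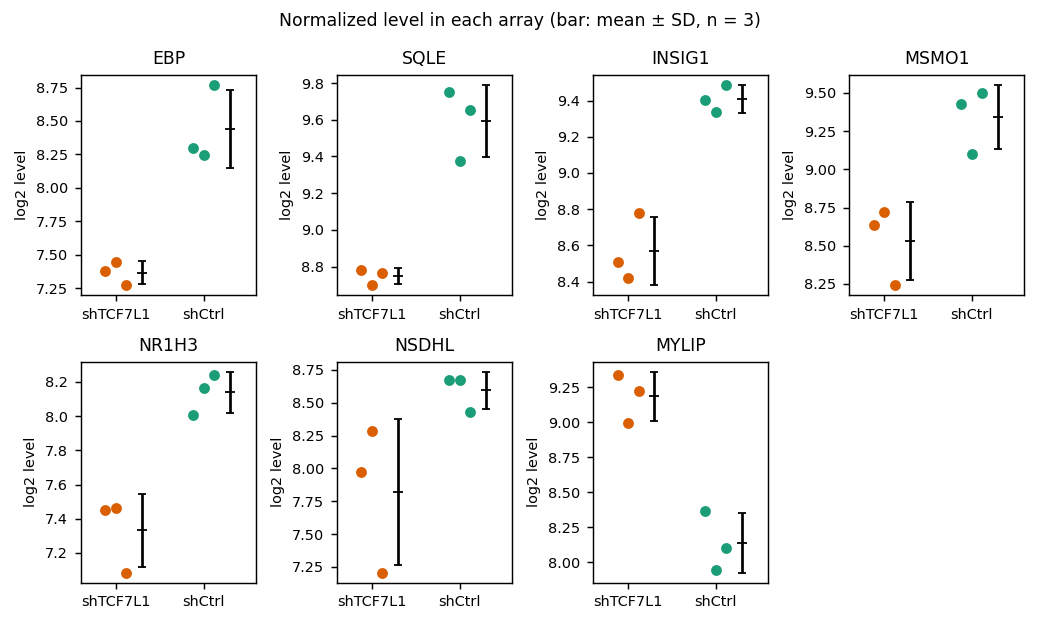
Normalized log2 level (y axis) of the 7 sterol pathway genes that passed the threshold, in each shTCF7L1 and shCtrl array (points; x axis), with mean ± SD over 3 arrays (bar). In all 7 panels the groups are apart, and the NSDHL point of shTCF7L1 replicate 3, at 7.21, lies far from the other knockdown points.

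The remaining ring enzymes did not pass. CYP51A1, the lanosterol demethylase, had levels of 6.58, 6.65 and 6.67 in shTCF7L1 arrays, against 6.76, 6.89 and 6.86 in shCtrl arrays, so that the groups were apart by a small margin (-0.21, SE 0.19, adjusted p = 0.503). The reductase genes TM7SF2 (-0.20, SE 0.21) and LBR (-0.15, SE 0.22; its protein also binds the nuclear lamina) overlapped between groups. LSS, which closes the ring, read 7.01, 7.38 and 6.84 in shTCF7L1 arrays, against 7.55, 7.44 and 5.99 in shCtrl arrays. Control replicate 3 was low and set its sign: the log2 fold change was 0.09 (SE 0.32) with it and -0.42 without it. SC5D, a desaturase of the last steps, gave 0.45 (SE 0.24, adjusted p = 0.221), and DHCR7, the final reductase, -0.42 (SE 0.23, adjusted p = 0.226).

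Stretches of DNA before the start of 4 genes that fell, MSMO1, NSDHL, EBP and INSIG1, and of MYLIP, which rose, are shown because SREBP factors bind promoters together with NF-Y, a factor of the CCAAT box. Each runs over the 250 bases before the gene's start in the RefSeq promoter table of build GRCh38.p14, on the plus strand, at chr4:165327419-165327668, chrX:152830813-152831062, chrX:48521558-48521807, chr7:155297628-155297877 and chr6:16128836-16129085. Capitals mark CCAAT or its reverse complement and, in INSIG1, the E-box CACGTG, a motif that SREBP factors can also bind.
MSMO1: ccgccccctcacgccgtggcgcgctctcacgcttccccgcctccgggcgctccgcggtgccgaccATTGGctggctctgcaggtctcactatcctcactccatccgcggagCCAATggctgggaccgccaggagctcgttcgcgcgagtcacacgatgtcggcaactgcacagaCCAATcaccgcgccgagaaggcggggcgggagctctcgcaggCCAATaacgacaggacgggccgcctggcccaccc
NSDHL: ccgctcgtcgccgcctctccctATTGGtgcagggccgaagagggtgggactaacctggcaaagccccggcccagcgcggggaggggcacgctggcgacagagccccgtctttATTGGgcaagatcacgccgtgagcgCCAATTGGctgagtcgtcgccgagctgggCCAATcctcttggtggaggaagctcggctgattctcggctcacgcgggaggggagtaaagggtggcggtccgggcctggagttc
EBP: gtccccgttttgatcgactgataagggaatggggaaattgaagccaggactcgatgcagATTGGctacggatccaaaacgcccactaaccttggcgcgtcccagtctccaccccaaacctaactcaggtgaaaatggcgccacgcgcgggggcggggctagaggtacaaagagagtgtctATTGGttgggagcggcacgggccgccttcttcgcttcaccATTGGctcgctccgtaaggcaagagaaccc
INSIG1: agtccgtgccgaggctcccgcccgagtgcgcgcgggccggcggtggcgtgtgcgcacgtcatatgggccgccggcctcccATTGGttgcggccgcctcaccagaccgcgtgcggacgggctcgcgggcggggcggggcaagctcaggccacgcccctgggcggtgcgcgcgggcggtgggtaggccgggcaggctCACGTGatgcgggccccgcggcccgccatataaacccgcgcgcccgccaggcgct
MYLIP: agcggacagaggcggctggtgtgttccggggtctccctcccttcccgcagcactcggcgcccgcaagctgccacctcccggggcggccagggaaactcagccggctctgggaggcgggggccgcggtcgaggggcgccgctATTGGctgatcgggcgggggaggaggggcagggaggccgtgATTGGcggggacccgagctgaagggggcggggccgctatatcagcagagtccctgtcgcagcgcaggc

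A CCAAT box on either strand stood in the windows of 21 of the 29 listed genes that have a window (72.4%), and of 37.0% of the 27305 genes in the table. MSMO1 held 4 boxes, NSDHL 5, EBP 3, INSIG1 1 and MYLIP 2, and in NSDHL a pair on opposite strands overlapped. The box was found for 5 of 5 lower genes with a window, for MYLIP, and for 13 of 20 genes that did not pass. NR1H3, with 4 windows, held it in 1 of them. The SREBP element TCACNCCAC was found for 1 listed gene, SREBF2, 133 to 125 bases before its start, and for 1.09% of all genes. CACGTG occurred for 4 listed genes (13.8%), SC5D, SCAP, INSIG1 and ABCA1, and for 7.73% of all genes. The TCF core CTTTGAT occurred for 1, LBR, and for 2.75% of all genes. All were searched on both strands, and a match of letters is not evidence of binding. Only these exact letters within 250 bases were searched, so a missing match is not evidence that a binding site is missing.

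Of the regulators, INSIG1 was the gene that passed. It anchors SCAP in the endoplasmic reticulum and is itself a sensitive SREBP target. Its levels were 8.51, 8.42 and 8.78 in shTCF7L1 arrays, against 9.40, 9.33 and 9.49 in shCtrl arrays. The groups were apart by more than either group's own range, and the log2 fold change was -0.84 (SE 0.20, 95% interval -1.26 to -0.42, adjusted p = 0.00954), 1.79-fold higher in shCtrl cells. A second, dimmer probe, above background on 2 arrays of each group, gave -0.57 (SE 0.27) with overlapping groups.

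SREBF1, which encodes the SREBP1 proteins, read 7.12, 7.44 and 6.82 in shTCF7L1 arrays, against 7.75, 7.59 and 7.54 in shCtrl arrays. Knockdown values were lower throughout, but the difference of -0.50 (SE 0.21) did not pass (adjusted p = 0.116), and the other probe above background gave 0.20 (SE 0.21). The escort gene SCAP gave 0.36 (SE 0.23, adjusted p = 0.327) with overlapping groups. SREBF2, whose product is the main activator of the synthesis genes, could not be tested: its bead signal was 50.5, 31.1 and 39.1 in shTCF7L1 arrays, against 26.6, 39.5 and 35.4 in shCtrl arrays.

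**Figure D3:**
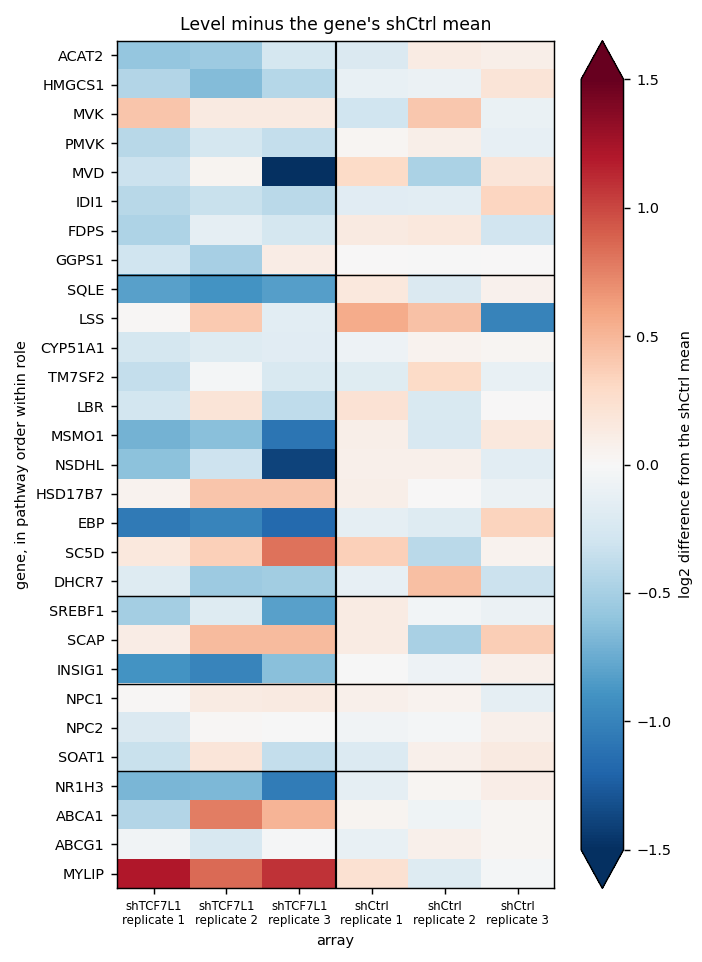
Level of each tested sterol pathway gene (rows, in pathway order, lines between roles) in each array (columns) minus that gene's shCtrl mean, on the log2 scale (colour). Among genes past the threshold, the shTCF7L1 columns are blue in SQLE, MSMO1, NSDHL, EBP, INSIG1 and NR1H3 and red in MYLIP. The shTCF7L1 values also lie below every shCtrl value in ACAT2, HMGCS1, PMVK, IDI1, CYP51A1 and SREBF1, which did not pass. Single cells stand out for MVD in shTCF7L1 replicate 3 and LSS in shCtrl replicate 3.

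In the LXR branch 1 of 4 tested genes fell, 1 rose and 2 did not pass, against 7.11% lower and 7.85% higher over all genes. NR1H3, the gene of LXR alpha, read 7.45, 7.46 and 7.08 in shTCF7L1 arrays, against 8.01, 8.17 and 8.24 in shCtrl arrays. All knockdown arrays lay lower, with a log2 fold change of -0.81 (SE 0.20, adjusted p = 0.0132) and 1.75-fold higher levels in shCtrl cells. Without shTCF7L1 replicate 3 it narrowly missed the threshold (-0.69, adjusted p = 0.0517, and 0.00937 to 0.0517 over the alternatives).

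MYLIP, also called IDOL, is an LXR target that encodes a ubiquitin ligase acting on lipoprotein receptors. It read 9.33, 8.99 and 9.22 in shTCF7L1 arrays, against 8.36, 7.94 and 8.11 in shCtrl arrays. Every knockdown value was above every control value, by 1.05 on average on the log2 scale (SE 0.20, 95% interval 0.62 to 1.48, adjusted p = 0.00328), or 2.07-fold. The call held in all 17 alternatives, at 0.94 to 1.16.

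The cholesterol exporters, which are textbook LXR targets as well, did not pass. ABCA1 read 5.42, 6.63 and 6.37 in shTCF7L1 arrays, against 5.90, 5.80 and 5.89 in shCtrl arrays. The control arrays were close together while the knockdown arrays fell on both sides of them, and the log2 fold change was 0.28 (SE 0.26, 95% interval -0.28 to 0.83). ABCG1 gave -0.10 (SE 0.19, 95% interval -0.51 to 0.31).

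Genes of sterol transport and storage showed the smallest differences of any role, with values of -0.17 to 0.09. NPC1 and NPC2, the proteins that release cholesterol from lysosomes, gave 0.09 (SE 0.19) and -0.07 (SE 0.19). SOAT1, which esterifies cholesterol for storage, gave -0.17 (SE 0.21). In limma 0 of these 3 passed, against 15% of all genes. An unadjusted p below 0.05 was found for 0 of the 3, against 3125 of all 10470 genes. With only 3 genes, a count of 0 cannot be told apart from these shares. Their 95% intervals reached from -0.62 to 0.49.

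Several probes read 7 of the tested members above background, and in 4 of these, SQLE, DHCR7, INSIG1 and ABCG1, the probes had a shared sign. For LBR, MSMO1 and SREBF1 they differed in sign. SQLE was the gene whose probes were all apart between groups. Both DHCR7 probes were negative, at -0.42 (SE 0.23) and -0.62 (SE 0.27), with overlapping groups.

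**Figure D4:**
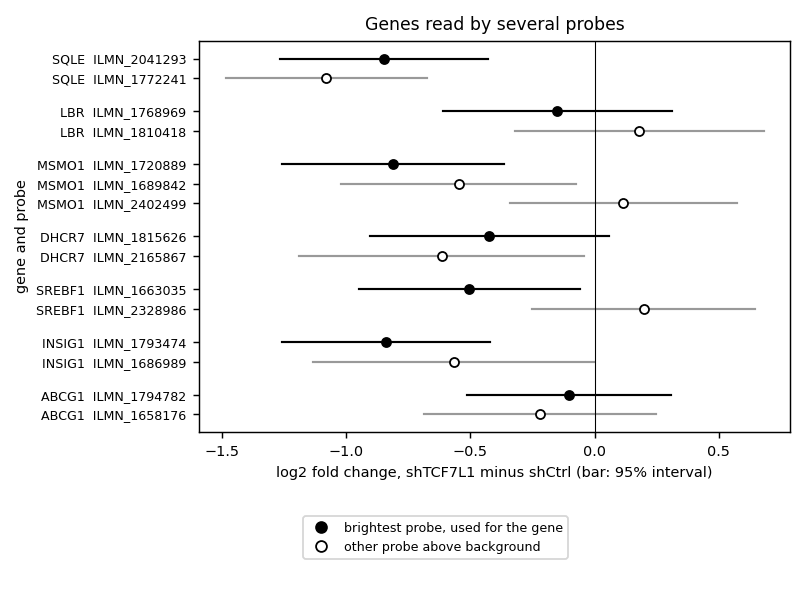
Log2 fold change (x axis, shTCF7L1 minus shCtrl, 95% interval) of each probe above background for the 7 sterol pathway genes with several such probes (y axis), the brightest filled. The SQLE probes lie at -0.85 and -1.08, while the MSMO1 probes spread over -0.81 to 0.12.

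Neighbouring genes were counted in 5 further lists, to be read beside 7.11% lower and 7.85% higher over all genes. Of 13 tested genes for SREBP processing and sterol sensing, 1 fell and 0 rose, with a median log2 fold change of 0.04. Knockdown values all lay below control values in 4 of the 13 and above in 0, against 15.8% and 18.1% of all genes. The gene that fell was ERLIN1, which encodes an endoplasmic reticulum protein that binds cholesterol and holds back SREBP transport, at -0.91 (SE 0.20, adjusted p = 0.00704). Its bead signal was 65.1, 64.9 and 58.9 in shTCF7L1 arrays, against 119, 102 and 85.8 in shCtrl arrays.

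Among 14 tested genes of the non-sterol mevalonate branches 1 fell, 1 rose and 12 did not pass (median -0.07). PDSS2, a subunit of the synthase that makes the ubiquinone side chain, fell by 1.05 on the log2 scale (SE 0.19, adjusted p = 0.00202). Its signal was 93.6, 92.0 and 95.4 in shTCF7L1 arrays, against 175, 161 and 176 in shCtrl arrays, which shows little spread within groups. DHDDS, which builds the dolichol chain, rose by 0.64 (SE 0.20, adjusted p = 0.0421), and its other probe gave 0.66 (SE 0.25). That call ended on leaving out any of the 6 arrays (adjusted p = 0.0543 to 0.154, and 0.0200 to 0.154 over the alternatives).

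Fatty acid and NADPH genes known as SREBP targets gave 1 lower gene of 14 tested and 13 that did not pass (median -0.14). Knockdown values all lay below control values in 4 of the 14 and above in 2, against 15.8% and 18.1% of all genes. SCD, the desaturase that makes oleate, had a bead signal of 2377, 3036 and 1913 in shTCF7L1 arrays, against 3755, 3745 and 5020 in shCtrl arrays. The groups were apart and the log2 fold change was -0.72 (SE 0.22, adjusted p = 0.0366). The call was lost without shTCF7L1 replicates 1 or 3 or shCtrl replicates 2 or 3 (adjusted p up to 0.141).

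For uptake, intracellular transport and ester turnover, 1 of 12 tested genes fell, 2 rose and 9 did not pass (median 0.05). LRP8, a lipoprotein receptor of the family that MYLIP acts on, fell by 0.98 (SE 0.20, adjusted p = 0.00398), and its other probe gave -0.67 (SE 0.27). The array reads RNA, while MYLIP acts on receptor protein, and a link between LRP8 and MYLIP was not tested. SCARB1, the receptor for high-density lipoprotein, rose by 0.62 (SE 0.20, adjusted p = 0.0463), and STARD5, a lipid-transfer protein, by 0.72 (SE 0.23, adjusted p = 0.0423). SCARB1 did not pass when any array except shCtrl replicate 2 was left out, nor STARD5 when any except shCtrl replicate 3 was left out (adjusted p up to 0.137 and 0.191).

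In the list of LXR partners, other LXR targets and oxysterol enzymes, 1 of 10 tested genes rose, 1 fell and 8 did not pass (median 0.10). SMPDL3A, a secreted phosphodiesterase known as an LXR target in human macrophages, rose 3.20-fold (log2 1.68, SE 0.20, adjusted p = 1.00e-04). Its signal was 148, 164 and 177 in shTCF7L1 arrays, against 66.3, 52.7 and 49.4 in shCtrl arrays. TTC39B, whose mouse counterpart promotes LXR degradation, fell by 1.03 (SE 0.22, adjusted p = 0.00579). In these lists a single call among 10 to 14 tested genes is near the 7.11% lower and 7.85% higher over all genes. The 2 of 12 that rose in the uptake list are a larger share, and both calls were lost with most single arrays left out. The knockdown group lay wholly below for 1 of 14 non-sterol branch genes, 1 of 12 uptake genes and 2 of 10 LXR genes. It lay wholly above for 2, 3 and 2 of them.

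**Figure D5:**
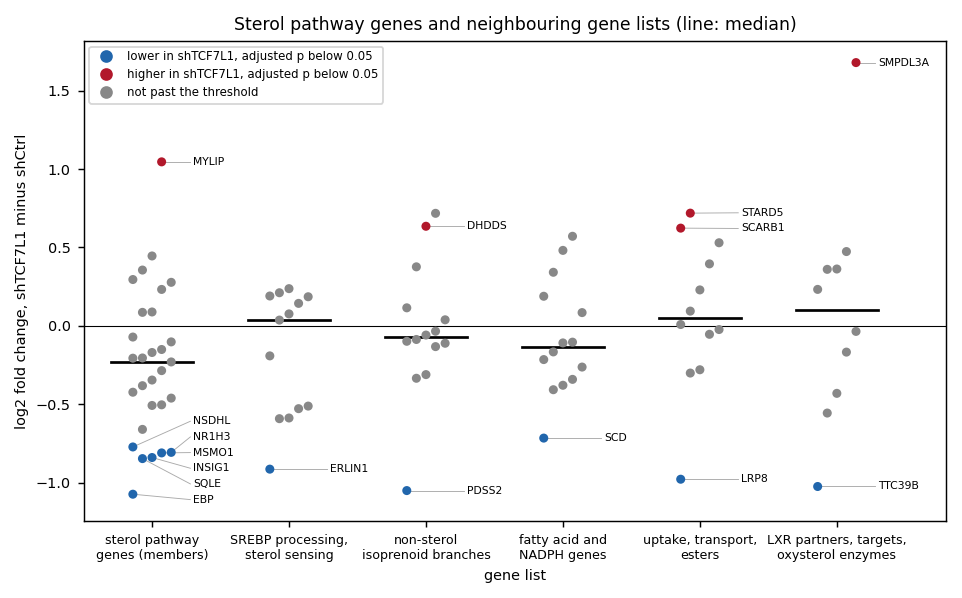
Log2 fold change (y axis, shTCF7L1 minus shCtrl) of each tested gene in the sterol pathway list and 5 neighbouring lists (x axis), with the median of each list as a line and genes past the threshold named. The sterol pathway median lies at -0.23 and the other medians between -0.14 and 0.10, and a difference between lists was not tested.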

How the data were processed

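RNA of 6 HCT116 cultures was read on an Illumina BeadChip; groups and replicate numbers came from the labels. The deposited table gives 47225 probes, each with an average signal and a detection p-value, as the file headers name them. The signals were taken as bead intensities on a linear scale, and the detection p-values as set against negative control beads. Per the submitters' processing notes, GenomeStudio version 2011.1 was used, with settings that the sources used here do not give. The authors' matrix (47231 probes, 6 of them not used here) holds intensities equal to a scaled, background-subtracted form of that signal (subtracting 27.3 to 28.0 units, factor 0.978 to 1.08), with array medians of 4.70 to 5.37, not on a log scale and not centred. It served as an alternative.

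The limma function neqc (offset 16) corrected the background of the intensities, quantile normalized them and took log2 values, in limma version 3.58.1, R version 4.3.3. Probes with detection p below 0.01 on at least 3 arrays were kept (16835). Symbols were updated through Entrez identifiers with the RefSeq table of GRCh38.p14 (30071 of 30110 probes with a single symbol matched, 8 had several, 17107 none). A gene was its brightest kept probe. Groups were compared over 10470 genes with lmFit and eBayes (2-sided, Benjamini-Hochberg), without a block. Statistics of further probes come from a fit over all kept probes, or that fit with a dimmer probe added. TCF7L1 was added to the gene fit. Exact permutation of 3 against 3 arrays cannot go below p = 0.1.

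All 33 members are accounted for, and TCF7L1 and called genes of each neighbouring list (up to 6, or the gene of smallest p) are named. The members and lists were chosen with earlier results of these data known. Promoter windows came from RefSeq for 29 members. On simulated data of 10470 genes, modelled on these arrays, the same fit recovered 0% of log2 changes of 0.5, 48% of 1, 76% of 1.5 and 98% of 2. That simulation changed only 50 genes at each size and gave 113 calls, against 1566 in the real data. With fewer calls its adjusted threshold was stricter, so these shares do not measure what the real fit could recover. The number of arrays limits the precision. The alternatives changed the background, scaling, filter, probe rule, variance model, block or array set.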

Additional observations from a re-analysis of the deposited data

How the results depend on the processing

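In 17 alternatives, of which 6 left out an array, 644 values of single genes other than TCF7L1 were recomputed: 599 kept their side of the threshold, 44 calls were lost, 1 was gained (HMGCS1) and 0 calls changed sign. The count of changed genes, 1566, was 1007 to 1164 with an array left out, and 1027, 1007 and 1028 without shCtrl replicates 1, 2 and 3. The number of lower members, 6, was 3 to 6 with an array left out, and the higher member stayed at 1. The members' median of -0.23 was -0.34 to -0.20 with an array left out, the lowest without shTCF7L1 replicate 2, and -0.15 with the authors' processed values. With those values TCF7L1 also passed (-0.69, adjusted p = 0.0320, and 0.0320 to 0.271 over the alternatives), the median of all genes was 0.10 and 67.4% of calls were increases, against 52.5% as reported; the cause was not tested. Replicate numbers did not pair the arrays (correlation of deviations -0.011, -0.007 and -0.006). With the replicate number as a block, 1451 genes changed and the members' counts stayed at 6 and 1, while DHDDS, SCD, STARD5 and SCARB1 did not pass. Dim probes such as TCF7L1 and SREBF2 are limited by signal close to background, where the offset sets the size of a fold change.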
